A study of Mus musculus with 6 samples.

Results

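Expression of 35 genes of hepatic glucose metabolism was read from liver arrays of mice fed extracts of Boswellia serrata. The list covers glucose uptake and release, gluconeogenesis, glycolysis, pyruvate dehydrogenase, glycogen and the pentose phosphate pathway. Membership goes by gene symbol, and the list was drawn up with earlier results of these data known. Of the 35 genes, 30 had a probe set annotated with that symbol alone, out of 12394 such genes on the array, and the brightest probe set stood for each gene. Of these 30, 29 passed the filter on dim probe sets and were tested. Gapdh was read only by the array's control probe sets, which were not tested. Pfkfb1, Eno1, Gpi1, Ppp1r3b and G6pdx were not analysed here. G6pc1 stands in the array annotation under its older symbol, G6pc.

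All mice were Swiss-Webster, an outbred stock, and the tissue was labelled liver. The control diet group, the fraction 1 group (hexane) and the fraction 2 group (methanol) had 2 arrays each. Either fraction made up 1% of the diet, and the feeding lasted 21 days. The labels do not say how the control diet was composed, which sex or age the mice had, or whether an array held RNA of 1 animal or of a pool. The p-values therefore measure the spread between these arrays, which may be technical.

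The liver takes up glucose through the transporter GLUT2 when blood glucose is high, stores it as glycogen or burns it through glycolysis, and releases it during fasting from glycogen and by gluconeogenesis. Both directions share most enzymes and differ at a few steps: glucokinase against glucose-6-phosphatase, phosphofructokinase against fructose bisphosphatase, and pyruvate kinase against pyruvate carboxylase and phosphoenolpyruvate carboxykinase. Insulin favours storage and glycolysis, glucagon and glucocorticoids favour release. The pentose phosphate pathway branches off at glucose-6-phosphate and supplies NADPH for fat synthesis and antioxidant defence, and its enzymes are known targets of the factor Nrf2.

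Promoter windows of 300 bases, which lie mostly upstream of an annotated start, are printed for 4 members as examples, chosen so that each of 4 short motifs of known regulators of this pathway is shown; other members' windows hold such motifs too. The sequences are RefSeq's on build GRCm38.p6, printed along the gene's strand. In Ldha (chr7:46845554-46845853, plus strand), capitals mark ACGTG, the core bound by hypoxia-inducible factors, on either strand, and TGACGTCA, the cAMP response element. In Pgk1 (chrX:106186850-106187149, plus strand) they mark ACGTG on either strand. In Aldoa (chr7:126799205-126799504, minus strand, one of 3 listed windows of the gene) they mark TGACNNNGC, the antioxidant response element core bound by Nrf2, read on the opposite strand. In G6pc1 (chr11:101367466-101367765, plus strand) they mark TGTTTTG, a form of the insulin response sequence.
Ldha: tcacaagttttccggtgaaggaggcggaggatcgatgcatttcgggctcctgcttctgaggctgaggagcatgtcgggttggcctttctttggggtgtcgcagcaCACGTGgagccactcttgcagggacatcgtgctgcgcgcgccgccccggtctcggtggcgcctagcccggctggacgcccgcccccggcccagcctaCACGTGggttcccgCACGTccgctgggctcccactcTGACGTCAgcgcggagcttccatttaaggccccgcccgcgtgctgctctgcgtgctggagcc
Pgk1: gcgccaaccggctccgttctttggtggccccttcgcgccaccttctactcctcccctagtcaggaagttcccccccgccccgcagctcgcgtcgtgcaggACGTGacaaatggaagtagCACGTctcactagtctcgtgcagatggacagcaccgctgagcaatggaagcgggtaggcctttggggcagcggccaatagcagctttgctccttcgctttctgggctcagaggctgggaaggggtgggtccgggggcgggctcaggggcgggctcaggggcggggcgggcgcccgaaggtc
Aldoa: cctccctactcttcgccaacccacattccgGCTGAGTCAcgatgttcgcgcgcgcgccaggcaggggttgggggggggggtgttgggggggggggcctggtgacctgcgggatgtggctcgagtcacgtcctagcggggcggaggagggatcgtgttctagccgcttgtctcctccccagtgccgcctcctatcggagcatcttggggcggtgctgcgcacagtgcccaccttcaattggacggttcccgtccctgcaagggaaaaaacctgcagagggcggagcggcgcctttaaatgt
G6pc1: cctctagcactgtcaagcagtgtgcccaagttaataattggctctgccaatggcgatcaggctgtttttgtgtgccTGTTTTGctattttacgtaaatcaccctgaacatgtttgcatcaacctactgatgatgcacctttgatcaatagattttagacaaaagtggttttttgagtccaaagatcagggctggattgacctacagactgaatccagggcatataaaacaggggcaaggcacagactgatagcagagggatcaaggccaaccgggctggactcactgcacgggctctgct

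RefSeq windows were found for 29 of the 30 members, 40 windows in all; none was found for Gys2. ACGTG stood in 16 of the 40 windows, or 40%, and in 19.6% of all 32851 windows in the table. Windows of a gene can overlap, and the same ACGTG site of Aldoa was counted in both windows that held it. The longer E-box motif CACGTG contains this core, so its matches are counted in both. It stood in 15% of the members' windows and 7.15% of all windows. Motifs were searched on both strands. TGACNNNGC stood in 6 of 40 windows, or 15%, against 12.4% of all windows. These were windows of Pklr, Pgd, Aldoa, Mdh1, G6pc1 and Fbp1. TGACGTCA stood only in the Ldha window among members, against 1.79% of all windows, and TGTTTTG in those of Gckr and G6pc1, against 6.28%. A match describes letters in a window and is not a binding site.

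The deposited table gave 1 signal per probe set and array, on a linear scale called array units here. In all, 14755 of 22690 probe sets, standing for 9209 genes, were tested. With so few arrays precision is low, and standard errors of log2 fold changes had a median of 0.18 over the members and 0.24 over all genes. Control replicate 1 and fraction 2 replicate a were scanned in 1 session (batch 2) and the other 4 arrays in another (batch 1), so fraction 1 against control within a batch rests on control replicate 2 alone. The array files name 3 chip lots. Of 10 hepatocyte markers 8 had a probe set and were bright, with summed signals of 179369 and 210106 array units on the control diet, 172442 and 154105 after fraction 1, and 148886 and 143728 after fraction 2. The control arrays lay above all others, and the markers' median log2 fold change was -0.27 and -0.43 for the fractions. Transcripts of pancreas were also present: 5 markers, among them the digestive enzymes Cpa1, Cela1 and Prss2, summed to 18473 and 12667 array units on the control diet, 7177 and 23434 after fraction 1, and 24022 and 12812 after fraction 2. Muscle markers ran from 1210 to 3732 array units, highest in control replicate 2. Stellate cell markers summed to 6986 and 6080 array units on the control diet and 4362 and 3472 after fraction 1. Endothelial markers summed to 5952 and 7488 on the control diet and 5086 and 4890 after fraction 1. Both lists were lower on both fraction 1 arrays, with median log2 fold changes of -0.48 and -0.32, and no marker of either passed. Single markers differed: Reln, Stab2 and Clec4g were lower without overlap, while Col1a1, Dcn, Cdh5 and Eng overlapped with control. The stellate sum was also below both controls after fraction 2, at 5954 and 4697 array units. Kupffer cell markers summed to 9637 and 10824 on the control diet and 8699 and 9189 after fraction 1. Fewer cells of a type and less RNA per cell cannot be told apart in such bulk RNA. The part of these markers in the results below was not tested.

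Gapdh, the glycolytic enzyme that oxidises glyceraldehyde phosphate, is also a measure of RNA quality, since its control probe sets read 3 parts of the transcript. At the 3' part it read 13883 and 14143 array units on the control diet, 14267 and 14439 after fraction 1, and 11857 and 11979 after fraction 2. The fraction 2 arrays lay below the other 4, by 0.23 on the log2 scale from control, while fraction 1 was 0.03 above control. At the 5' part the order was lost: control read 12290 and 8145 array units, fraction 1 read 10353 and 11203, and fraction 2 read 11105 and 9062. The ratio of the 3' to the 5' signal reached 1.74 in control replicate 2, against 1.07 to 1.38 on the other arrays. No test was made for these probe sets.

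**Figure D1:**
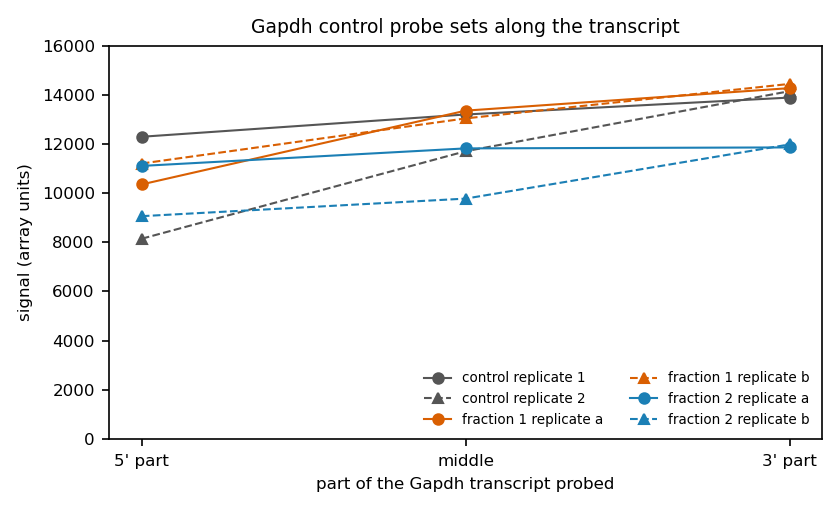
Signal of the 3 Gapdh control probe sets in array units (y axis, from 0) by the part of the transcript they read (x axis), with a line for each of the 6 arrays. At the 3' part both fraction 2 arrays read 11857 and 11979, below the other 4; at the 5' part control replicate 2 is the lowest at 8145.

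After fraction 1, the hexane extract, the pentose phosphate enzyme Pgd and the glycolytic enzymes Tpi1, Aldoa and Pgam1 read higher than in control, and glycogen synthase Gys2, glucose-6-phosphatase G6pc1, fructose bisphosphatase Fbp1 and lactate dehydrogenase Ldha read lower. None of the 29 tested members passed an adjusted p of 0.05 with limma, where 0.738% of 9209 genes (68) and 0.712% of probe sets passed. At an unadjusted p under 0.05 there were 9 members, which is 31% of them against 12.9% of all genes; 3 were higher (5.79% of all genes) and 6 lower (7.16%). At an adjusted p of 0.05, a plain test without moderation called 0 members and 0 of all 14755 probe sets. In 18 members the 2 groups did not overlap, against 41.9% of all genes; 7 were higher (18.6% of all genes) and 11 lower (23.3%). In 11 members the log2 fold change was above 0, against 46.3% of all genes. The median log2 fold change of the members was -0.11, that of all genes -0.03.

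After fraction 2, the methanol extract, Fbp1, Ldha, phosphoglycerate kinase Pgk1 and the cytosolic malate dehydrogenase Mdh1 read lower than in control. None of 29 passed with limma, where 0.119% of genes (11) and 0.108% of probe sets did. At an unadjusted p under 0.05 there were 4 members, or 13.8% against 7.23% of all genes; 0 were higher (3.31% of all genes) and 4 lower (3.92%). The groups did not overlap in 13 members, against 36.2% of all genes; 4 were higher (14.6% of all genes) and 9 lower (21.6%). In 11 members the log2 fold change was above 0, against 43.1% of all genes. The median was -0.10 for the members and -0.05 for all genes. Both comparisons use the same control arrays.

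Between the fractions, Pgd, Tpi1, Aldoa, Pgk1 and the glucose-6-phosphate transporter Slc37a4 read higher after fraction 1, and Gys2 and the glycogen-targeting subunit Ppp1r3c higher after fraction 2. None of 29 passed with limma, and 0% of 9209 genes did, against 0.0136% of probe sets. At an unadjusted p under 0.05 there were 7 members, or 24.1% against 7.96% of all genes; 5 were higher after fraction 1 (3.78% of all genes) and 2 lower (4.18%). The groups did not overlap in 15 members, against 47.9% of all genes; 8 were higher (25.9% of all genes) and 7 lower (21.9%). In 13 members the log2 fold change was above 0, against 52.8% of all genes. The members' median was -0.03 and that of all genes 0.02.

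**Figure D2:**
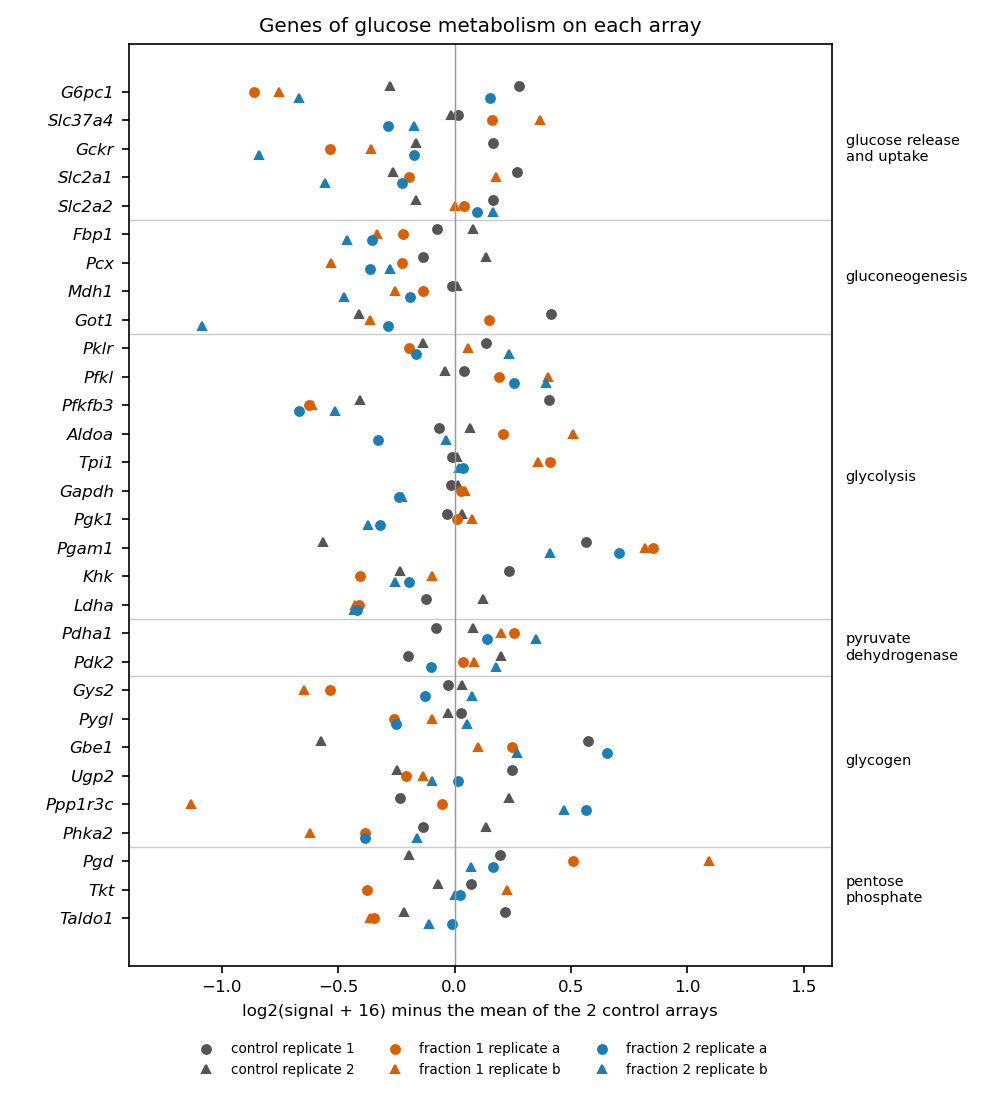
Level of the 30 members on each array, as log2(signal + 16) minus the mean of the 2 control arrays (x axis), grouped by role (y axis); circles and triangles are the 2 arrays of a group. Both fraction 1 points of Pgd, Tpi1 and Aldoa lie to the right of all others, those of Gys2 to the left, and the 4 points of both fractions of Ldha and Fbp1 lie left of both controls.

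**Figure D3:**
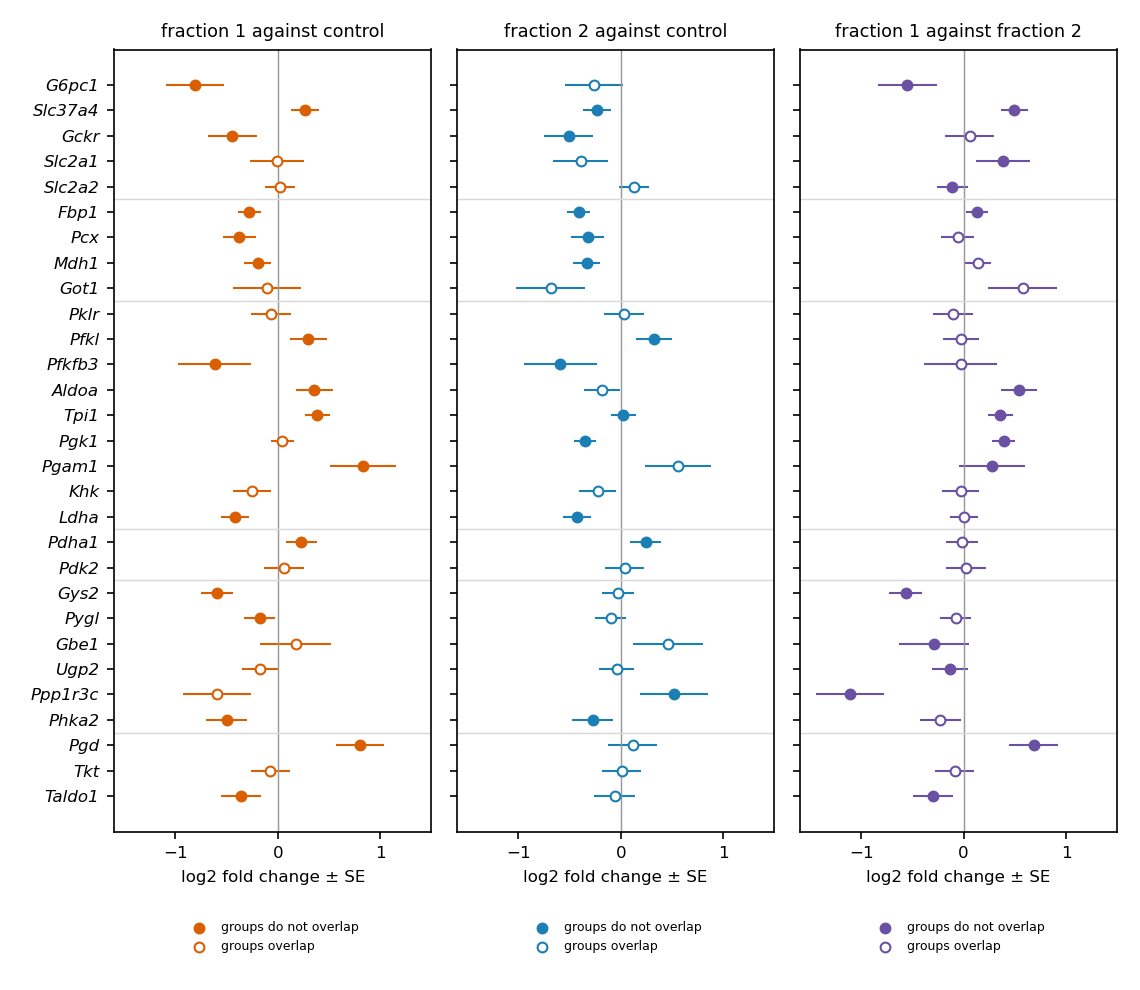
Log2 fold change with its standard error (x axis) for the 29 tested members (y axis) in the 3 comparisons, on the log2(signal + 16) scale; filled points are genes whose 2 groups of 2 arrays do not overlap. The widest distance from 0 is that of Ppp1r3c between the fractions, at -1.11, and none of the points passed the adjusted threshold.

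Glucose release and uptake came first in the order of roles. G6pc1, which frees glucose from glucose-6-phosphate in the last step of release, read 3434 and 2334 array units on the control diet, 1551 and 1671 after fraction 1, and 3145 and 1773 after fraction 2. Both fraction 1 arrays were the lowest, and the control and fraction 2 groups overlapped, each with its high array in scan batch 2. Its log2 fold change after fraction 1 was -0.81 ± 0.29 SE (adjusted p = 0.284), a fold of 0.571. With a scan-batch term it was -0.46, and within batch 1 it was -0.53. Against fraction 2 it was -0.55 (adjusted p = 0.65), and -0.14 within batch 1.

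Slc37a4 carries glucose-6-phosphate into the endoplasmic reticulum, where G6pc1 acts. It read 6838 and 6714 array units on the control diet, 7571 and 8751 after fraction 1, and 5551 and 5999 after fraction 2. The 3 groups did not overlap, with fraction 1 on top and fraction 2 at the bottom. Fraction 1 against fraction 2 stood at 0.50 ± 0.13 SE (adjusted p = 0.43), a fold of 1.41, with 0.47 in the blocked fit and 0.44 within batch 1. Against control the values were 0.26 for fraction 1 (adjusted p = 0.48) and -0.23 for fraction 2 (adjusted p = 0.779). G6pc1 and Slc37a4, partners in one reaction, thus had opposite signs after fraction 1.

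Slc2a2, the liver glucose transporter GLUT2, read 6685 and 5305 array units on the control diet, 6126 and 5962 after fraction 1, and 6365 and 6688 after fraction 2. Both fraction groups overlapped with control. The fold was 1.01 after fraction 1 (95% interval 0.801 to 1.29) and 1.10 after fraction 2 (0.864 to 1.39). Gckr, the protein that holds glucokinase inactive in the nucleus, read 3339 and 2653 array units on the control diet, 2048 and 2319 after fraction 1, and 2634 and 1653 after fraction 2. Both controls were the highest arrays. Its log2 fold changes were -0.45 (adjusted p = 0.503) and -0.51 (adjusted p = 0.743), and with a scan-batch term that of fraction 1 was -0.20. Slc2a1, the transporter GLUT1 of most tissues other than hepatocytes, stood at -0.01 and -0.39 by its brightest probe set.

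The 4 members assigned to gluconeogenesis and its shuttles were below 0 in both comparisons with control, with none passing. In 3 of the 4, both control arrays were above both arrays of fraction 1, and likewise above both of fraction 2; over all genes this held for 23.3% and 21.6%. The sign of Got1 after fraction 1, at -0.11, turned to 0.30 with a scan-batch term, 0.38 with a chip-lot term and 0.30 within batch 1. Fbp1, the fructose bisphosphatase that opposes phosphofructokinase, read 20880 and 23240 array units on the control diet, 18881 and 17471 after fraction 1, and 17207 and 15971 after fraction 2. The 3 groups did not overlap. Its log2 fold change was -0.28 ± 0.11 SE after fraction 1 (adjusted p = 0.348) and -0.41 ± 0.11 SE after fraction 2 (adjusted p = 0.512). Within batch 1 the values were -0.36 and -0.54, and within batch 2 that of fraction 2 was -0.28. With quantile normalization they shrank to -0.15 and -0.10. The general hepatocyte markers had medians of -0.27 and -0.43, close to those of Fbp1.

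Pcx, the pyruvate carboxylase that starts gluconeogenesis from pyruvate, read 6550 and 7890 array units on the control diet, 6147 and 4974 after fraction 1, and 5580 and 5923 after fraction 2. Both controls were the highest, and the fractions overlapped each other. The log2 fold changes were -0.38 (adjusted p = 0.386) and -0.32 (adjusted p = 0.748). Mdh1, the cytosolic malate dehydrogenase of the malate shuttle, read 11521 and 11715 array units on the control diet, 10561 and 9720 after fraction 1, and 10167 and 8349 after fraction 2. Every array of a fraction lay below both controls. Fraction 2 against control stood at -0.33 ± 0.13 SE (adjusted p = 0.677). It was -0.22 with median centring and -0.19 without fraction 2 replicate b. The 3 dimmer probe sets of Mdh1 stood at -0.10, 0.10 and -1.02 after fraction 2. After fraction 1 they stood at 0.30, 0.36 and -0.15, against -0.20 for the brightest, and the groups of the one at 0.36 did not overlap. Got1, the cytosolic aspartate aminotransferase, ran from 3685 to 6542 array units on the control diet and from 2307 to 4024 after fraction 2, and those groups overlapped; the value was -0.69 (adjusted p = 0.747).

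In glycolysis, 5 of 9 tested members were above 0 after fraction 1 and 4 below. Tpi1, triosephosphate isomerase, read 6831 and 6937 array units on the control diet, 9152 and 8840 after fraction 1, and 7057 and 6970 after fraction 2. The fraction 1 arrays stood well above the other 4, which lay close together. Its log2 fold change was 0.39 ± 0.12 SE against control (adjusted p = 0.222) and 0.36 ± 0.12 SE against fraction 2 (adjusted p = 0.516), folds of 1.31 and 1.28. With a scan-batch term the values were 0.38 and 0.36. Both other probe sets of Tpi1 also read higher on both fraction 1 arrays than in control, at up to 0.47. The brightest is of a type that can match related sequences, and all were read on the same arrays.

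Aldoa, the aldolase of muscle and most tissues, read 2770 and 3033 array units on the control diet, 3346 and 4128 after fraction 1, and 2305 and 2823 after fraction 2. Both fraction 1 arrays were the highest. Against fraction 2 the value was 0.54 ± 0.18 SE (adjusted p = 0.514), and against control it was 0.36 (adjusted p = 0.471). All 4 tested probe sets of Aldoa had non-overlapping groups with fraction 1 on top in both comparisons, at 0.23 to 0.56 against control and 0.36 to 0.59 against fraction 2. All 4 are of a type that can match related sequences, so they are not independent readings. The summed muscle markers, 2168 and 2431 array units after fraction 1, lay between the controls at 1445 and 3732.

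Pgam1, phosphoglycerate mutase, read 2446 and 1109 array units on the control diet, 2989 and 2915 after fraction 1, and 2702 and 2195 after fraction 2. Control replicate 2 was far below the other 5 arrays. The log2 fold change after fraction 1 was 0.83 ± 0.32 SE (adjusted p = 0.336). It was 1.19 with a scan-batch term (adjusted p = 0.064). Against control replicate 2 alone it was 1.40 (adjusted p = 0.0278), and against control replicate 1 alone it was 0.27. Each of these fits has 1 control array, which is assumed to vary like the arrays of the other groups, so the low p rests on the outlying control array. The size therefore rested on control replicate 2, the array with the high Gapdh 3' to 5' ratio.

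Ldha, the lactate dehydrogenase subunit whose promoter window is printed above, read 8007 and 9503 array units on the control diet, 6560 and 6481 after fraction 1, and 6515 and 6466 after fraction 2. The 4 arrays of both fractions lay close together and below both controls. The log2 fold change was -0.42 ± 0.13 SE after fraction 1 (adjusted p = 0.239) and -0.43 ± 0.13 SE after fraction 2 (adjusted p = 0.578), a fold of 0.748 and 0.745. In batch 1 these were -0.54 and -0.55, and in batch 2 fraction 2 stood at -0.30. Between the fractions the fold was 1.00 (95% interval 0.812 to 1.24).

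Pgk1, the phosphoglycerate kinase whose promoter window is printed above, read 13140 and 13746 array units on the control diet, 13546 and 14177 after fraction 1, and 10766 and 10367 after fraction 2. The fraction 2 arrays were the lowest, as with the 3' part of Gapdh, the enzyme one step before it. At the middle and 5' parts of Gapdh the control and fraction 2 groups overlapped. The general hepatocyte markers, bright as well, had a median of -0.43 after fraction 2. Fraction 2 stood at -0.35 ± 0.11 SE against control (adjusted p = 0.577), or -0.19 with quantile normalization, and fraction 1 at 0.39 ± 0.11 SE against fraction 2 (adjusted p = 0.43). A dimmer probe set of Pgk1, not of the type that can match related sequences, stood at -0.04 and 0.14 in the same comparisons. It read 8284 and 7780 array units on the control diet and 7903 and 7671 after fraction 2, so its groups overlapped.

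Pklr, the pyruvate kinase of liver, read 3268 and 2712 array units on the control diet, 2596 and 3096 after fraction 1, and 2656 and 3508 after fraction 2. All 3 groups overlapped, and the folds were 0.953 (95% interval 0.699 to 1.30) and 1.03 (0.752 to 1.40). A dimmer Pklr probe set gave another picture for fraction 1: it read 2365 and 1050 array units on the control diet and 942 and 815 after fraction 1, a log2 fold change of -0.84 (adjusted p = 0.36). The size rested on control replicate 1, at 2365, which was scanned in batch 2. Control replicate 2, scanned in batch 1 with the fraction 1 arrays, read 1050, much nearer to them. Pklr is also the pyruvate kinase of red cells. Of 9 red cell markers 3 had a probe set. They summed to 2384 and 2817 array units on the control diet, 916 and 891 after fraction 1, and 2768 and 1573 after fraction 2. Most of that signal was Alas2, which makes heme in red cell precursors and passed the threshold after fraction 1. The others, Hba-a1 and Slc4a1, were too dim to be tested, so the sum reflects mainly a single gene. The part of red cell precursors in the Pklr reading was not tested.

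Of the other glycolytic members, Pfkl, the liver phosphofructokinase, read 1016 and 959 array units on the control diet, 1130 and 1309 after fraction 1, and 1182 and 1301 after fraction 2. Both controls were the lowest arrays, and the values were 0.30 (adjusted p = 0.556) and 0.32 (adjusted p = 0.759). Its other probe set gave 0.31 and 0.30. Pfkfb3, which makes the activator of phosphofructokinase, stood at -0.62 and -0.59 by its brighter probe set and at 0.01 and -0.02 by the other. The brighter one read 217 and 117 array units on the control diet, 98.1 and 99.2 after fraction 1, and 94.6 and 107 after fraction 2. Except for control replicate 1, these lay near the lower limit of the filter, which ran from 92.5 to 116 array units by array. Within batch 1 the values were -0.21 and -0.11. Khk, the ketohexokinase that commits fructose to breakdown, overlapped with control in both comparisons, at -0.25 and -0.22. Pdha1, a subunit of pyruvate dehydrogenase, read 3092 and 3453 array units on the control diet, 3903 and 3758 after fraction 1, and 3596 and 4175 after fraction 2, with values of 0.23 and 0.24. The dimmer probe set of Pdha1 stood at 0.47 and -0.04, and at 0.52 between the fractions without overlap. Pdk2, a kinase that inactivates pyruvate dehydrogenase, stood at 0.06 and 0.04.

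**Figure D4:**
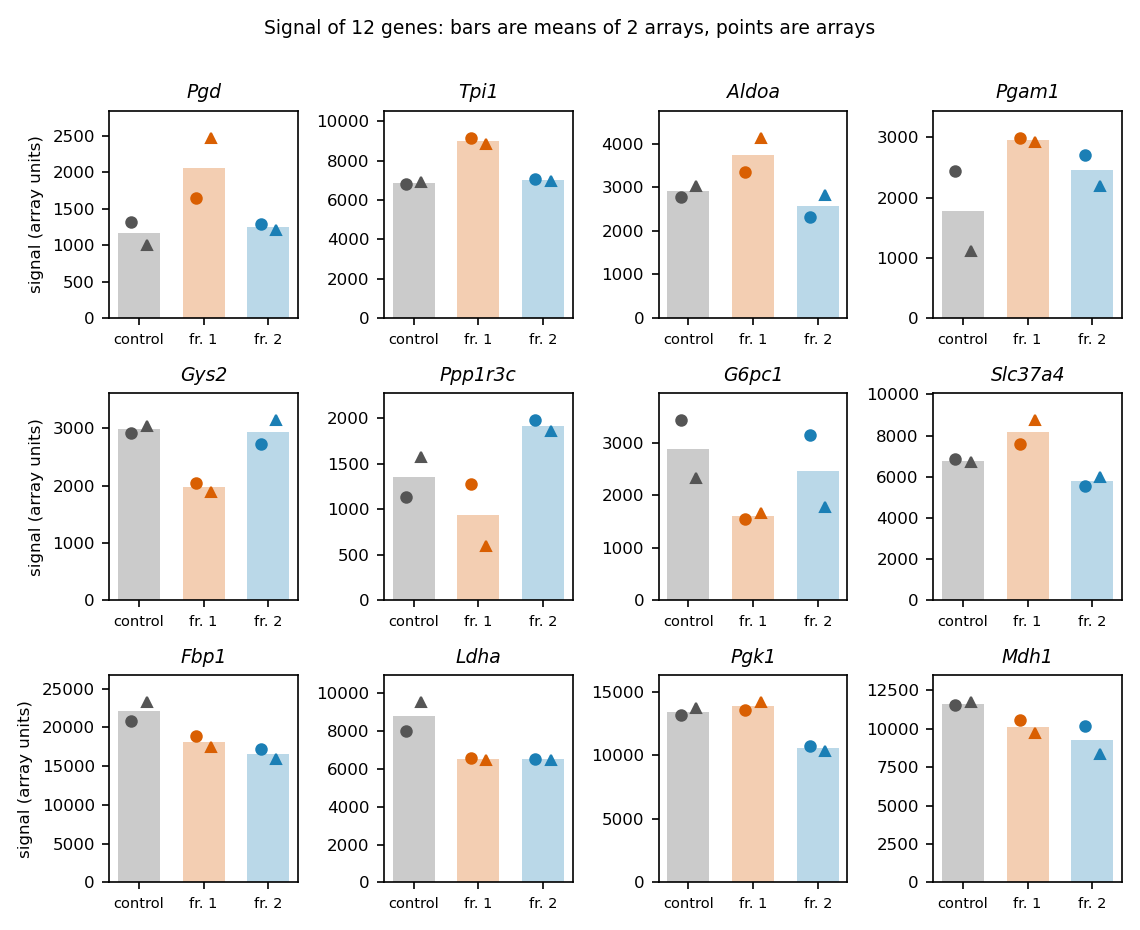
Signal in array units (y axes, from 0) of 12 members in control, fraction 1 and fraction 2; bars are means of 2 arrays and points are the arrays, circles for replicate 1 or a and triangles for 2 or b. For Gys2 both fraction 1 points, 2055 and 1899, lie below both controls, and for Pgam1 the 2 control points are far apart, at 2446 and 1109.

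In the glycogen group, 5 of 6 tested members were below 0 after fraction 1, and all 6 were lower after fraction 1 than after fraction 2, 4 of them without overlap (21.9% of all genes were lower without overlap); none passed. The signs of Gbe1 and Ugp2 between the fractions turned with a scan-batch term, to 0.09 and 0.02, and with a chip-lot term, to 0.13 and 0.06. These counts go by the brightest probe sets. Of the 5 probe sets of Ugp2, 3 were above 0 between the fractions, and 1 of those stood at 0.30 without overlap. Gys2, the glycogen synthase of liver, read 2923 and 3048 array units on the control diet, 2055 and 1899 after fraction 1, and 2733 and 3146 after fraction 2. Both fraction 1 arrays were below the other 4, and fraction 2 spanned the controls. Its log2 fold change was -0.59 ± 0.16 SE against control (adjusted p = 0.16) and -0.57 ± 0.16 SE against fraction 2 (adjusted p = 0.43). With a scan-batch term the values were -0.66 (adjusted p = 0.1) and -0.63, and with a chip-lot term -0.65 and -0.64. For fraction 2 against control the fold was 0.983 (95% interval 0.765 to 1.26).

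Ppp1r3c, a subunit that brings protein phosphatase to glycogen and so activates its synthesis, read 1129 and 1568 array units on the control diet, 1281 and 598 after fraction 1, and 1976 and 1852 after fraction 2. The 2 fraction 1 arrays differed widely, and both fraction 2 arrays were above all others. Between the fractions the value was -1.11 ± 0.33 SE (adjusted p = 0.475), a fold of 0.463. It was -1.21 with a scan-batch term and -1.43 with a chip-lot term (adjusted p = 0.0732). Without fraction 1 replicate b it was -0.57, and without replicate a it was -1.65. The dimmer probe set of Ppp1r3c read 77.8 and 95.8 array units after fraction 1 and 257 and 131 after fraction 2, a value of -0.97. Both fraction 1 readings lay below the lower limit of the filter on their arrays, 101 and 105 array units.

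Pygl, the liver glycogen phosphorylase, read 6552 and 6307 array units on the control diet, 5370 and 6010 after fraction 1, and 5393 and 6676 after fraction 2. Its folds were 0.884 (95% interval 0.696 to 1.12) and 0.934 (0.735 to 1.19). Phka2, the liver subunit of the kinase that activates phosphorylase, read 890 and 1078 array units on the control diet, 748 and 632 after fraction 1, and 747 and 874 after fraction 2. All fraction arrays were below both controls, and fraction 1 stood at -0.50 ± 0.20 SE (adjusted p = 0.355). Gbe1, the branching enzyme, read 957 and 423 array units on the control diet, so its values of 0.17 and 0.46 lay within the spread of the controls. Ugp2, which makes UDP-glucose for glycogen and glucuronides, stood at -0.17 and -0.04 by its brightest probe set and at 0.05 to 0.63 by the other 4 after fraction 1.

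In the pentose phosphate group, Pgd, the 6-phosphogluconate dehydrogenase that yields NADPH, read 1320 and 1001 array units on the control diet, 1643 and 2472 after fraction 1, and 1290 and 1208 after fraction 2. Both fraction 1 arrays were the highest, replicate b most of all, and fraction 2 lay between the controls. The log2 fold change was 0.80 ± 0.24 SE against control (adjusted p = 0.199), a fold of 1.74 with a 95% interval of 1.20 to 2.54. Against fraction 2 it was 0.68 ± 0.24 SE (adjusted p = 0.531). With a scan-batch term the values were 0.92 and 0.81, and 1.00 and 0.73 within batch 1. Without fraction 1 replicate b they were 0.51 and 0.39. All 4 probe sets of Pgd had non-overlapping groups in both comparisons, at 0.75 to 0.80 against control and 0.40 to 0.68 against fraction 2. All but the dimmest are of a type that can match related sequences, and all were read on the same arrays, so these too are not independent readings.

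The 2 other tested members of the pathway had other patterns. Tkt, transketolase, read 8675 and 7879 array units on the control diet, 6372 and 9665 after fraction 1, and 8407 and 8270 after fraction 2, so the groups overlapped, at -0.08 and 0.01. Its dimmer probe set read 2315 and 1873 array units on the control diet, 2438 and 3283 after fraction 1, and 3303 and 3272 after fraction 2, at 0.44 (adjusted p = 0.409) and 0.65 (adjusted p = 0.535). Taldo1, transaldolase, read 1749 and 1290 array units on the control diet, 1178 and 1163 after fraction 1, and 1490 and 1392 after fraction 2. Both fraction 1 arrays were the lowest, at -0.36 (adjusted p = 0.519).

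**Figure D5:**
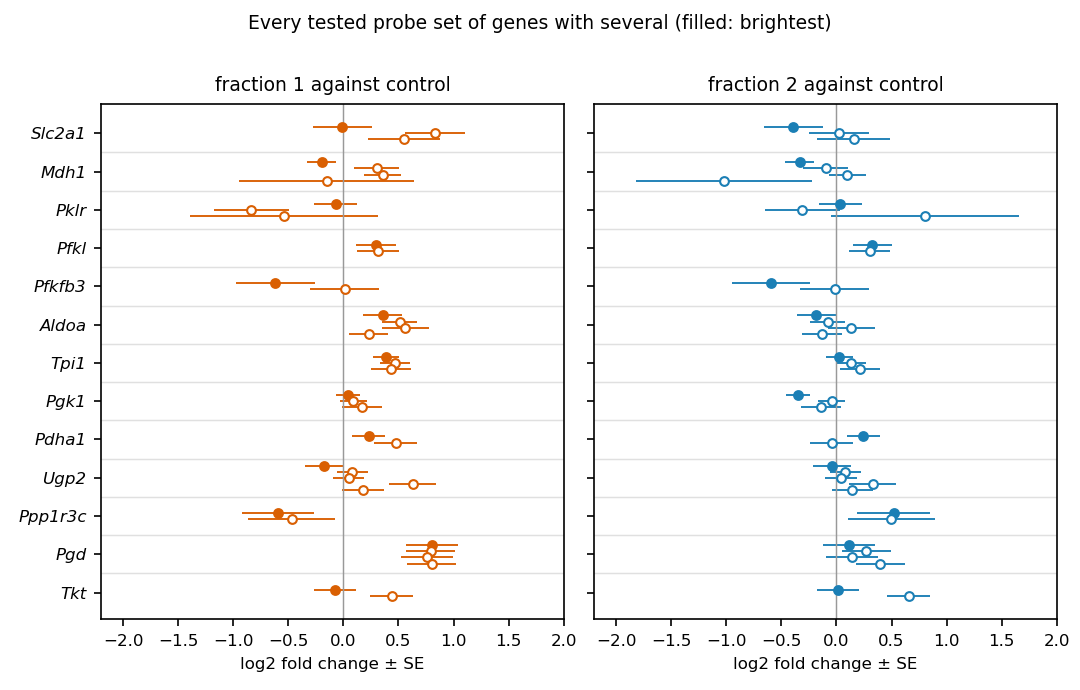
Log2 fold change with its standard error (x axes) of every tested probe set of the 13 members with several (y axis), for each fraction against control; the filled point is the brightest probe set, which stands for the gene. The 4 points of Pgd lie together at 0.75 to 0.80 after fraction 1, while those of Slc2a1, Mdh1, Ugp2 and Tkt fall on both sides of 0.

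Probe sets of the same gene did not always give one sign. Of 13 members with several tested probe sets, all of a member's probe sets had the same sign in 8 after fraction 1, in 7 after fraction 2 and in 9 between the fractions. Slc2a1 showed the widest split after fraction 1 among members named here: its brightest probe set stood at -0.01, the others at 0.83 (adjusted p = 0.25) and 0.55. The dimmest, at 0.55, read 88.3 and 96.3 array units on the control diet. Both readings lay below the lower limit of the filter on their arrays, 93.5 and 116 array units. The middle one read 151 and 176 array units on the control diet, 241 and 377 after fraction 1, and 150 and 183 after fraction 2, with both fraction 1 arrays on top.

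The rest of the pathway was read from 126 further genes, of which 91 were tested. With limma 0 of 91 passed in any of the 3 comparisons; 17, 8 and 12 had an unadjusted p under 0.05, where 12.9%, 7.23% and 7.96% of all genes did. Pck1, the phosphoenolpyruvate carboxykinase that controls gluconeogenesis, read 5661 and 6231 array units on the control diet, 6491 and 7342 after fraction 1, and 4549 and 4489 after fraction 2. The 3 groups did not overlap, in the same order as those of Slc37a4. The values were 0.22 and -0.39 against control (adjusted p = 0.583 and 0.639) and 0.61 between the fractions (adjusted p = 0.304).

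Among glycogen genes outside the 35, Gaa, the lysosomal enzyme that degrades glycogen, read 462 and 845 array units on the control diet, 1843 and 1985 after fraction 1, and 1128 and 1517 after fraction 2. Its values were 1.59 (adjusted p = 0.0541) and 1.05 (adjusted p = 0.516), and with a scan-batch term that of fraction 1 was 1.27 (adjusted p = 0.0389, past the threshold) and with a chip-lot term 1.29 (adjusted p = 0.0533, not past it). Gyg, the glycogenin that primes glycogen, read 93.0 and 83.5 array units on the control diet, 182 and 175 after fraction 1, and 168 and 159 after fraction 2. All 4 fraction arrays lay above both controls, at 0.90 (adjusted p = 0.196) and 0.79 (adjusted p = 0.61). Both control readings lay below the lower limit of the filter on their arrays, 93.5 and 116 array units. Gyg was thus tested only because it was high on the fraction arrays, and these p-values do not count as support. Stbd1, which binds glycogen for transfer to lysosomes, stood at 0.46 and 0.63.

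Of the genes around pyruvate, Ldhb, the other common lactate dehydrogenase subunit, read 1033 and 953 array units on the control diet, 679 and 696 after fraction 1, and 636 and 603 after fraction 2. As with Ldha, all 4 fraction arrays lay below both controls, at -0.52 (adjusted p = 0.269) and -0.67 (adjusted p = 0.508). Pdk4, a fasting-induced kinase of pyruvate dehydrogenase, read 34.4 and 42.9 array units on the control diet, 83.4 and 179 after fraction 1, and 134 and 168 after fraction 2. Its values of 1.35 (adjusted p = 0.24) and 1.61 (adjusted p = 0.512) come from dim signals, where the added constant of 16 makes folds smaller. Both controls and fraction 1 replicate a lay below the filter's lower limit on their arrays, 93.5, 116 and 101 array units. Pdk4 was thus tested only because it was high on the other fraction arrays, and these p-values do not count as support.

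Of 29 tested regulators none passed. Cebpb, a factor that activates Pck1, read 1553 and 955 array units on the control diet, 2749 and 3139 after fraction 1, and 1583 and 1681 after fraction 2, a value of 1.26 after fraction 1 (adjusted p = 0.0659). It was 1.41 with a scan-batch term (adjusted p = 0.0463) and 1.31 with a chip-lot term (adjusted p = 0.0484), both past the threshold. Both of these fits lean on control replicate 2, the lowest array for Cebpb and the one with the high Gapdh 3' to 5' ratio. It is the only control that shares a scan batch or chip lot with a fraction 1 array. Srebf1, the factor of insulin-driven fat synthesis, stood at -0.91 (adjusted p = 0.159), and Mlxipl, the factor that answers to carbohydrate, at -0.39 (adjusted p = 0.515). Igfbp1, an insulin-repressed binding protein outside these lists, rose by 3.45 after fraction 1 (adjusted p = 0.0301) and stood at 0.18 after fraction 2. It read 357 and 486 array units on the control diet, 3253 and 6814 after fraction 1, and 274 and 812 after fraction 2. G6pc1, also known to be repressed by insulin, stood at -0.81 after fraction 1 and did not pass.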

How the data were processed

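The deposited table held 1 intensity per probe set for each of the 6 arrays; how the authors summarised it is not given in the sources used here. Values were used as deposited, because the trimmed means of the arrays lay between 499.5 and 499.9 array units. Of 22690 probe sets, 64 control probe sets were not tested. Scan session and chip lot came from the array files. Tests covered probe sets that on 2 or more of 6 arrays reached that array's 40th percentile. Values were taken as log2(signal + 16) and fitted with limma 3.58.1 in R 4.3.3 (lmFit, then eBayes with trend), all arrays together, two-sided, with Benjamini-Hochberg adjustment over 14755 probe sets. A group counts as not overlapping if both its arrays lie beyond both arrays of the other. Members given with an error were those with the smallest unadjusted p under 0.05 and non-overlapping groups, at most 8 a comparison. Other genes named were fixed readouts, and those of smallest p in each list. The members, lists and motifs were chosen with earlier results of these data known. Dimmer probe sets were picked for the text after their values were seen. Alternatives changed the scaling, pseudocount, filter, variance model, blocks (scan batch, chip lot, replicate letter), probe set and arrays used. The procedure was run on simulated data with independent noise on each array. Those data held no scan-batch or chip-lot effect, so they cannot show how the procedure behaves under such effects. Figures used Python 3.11.15 and matplotlib 3.10.9.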

Additional observations from a re-analysis of the deposited data

How the results depend on the processing

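None of the 19 results on single members had passed in the main fit. Changing the filter, variance model or moderation, or comparing groups alone, leaves the fold change as it was, so its direction could not turn there. The same holds for leaving out an array of the group not compared and, for fraction 2 against control, for a scan-batch term. Of 370 values recomputed for these 19 results, 367 kept their direction and their side of the threshold. The exceptions were Pgam1 after fraction 1, which passed without control replicate 1 and in scan batch 1 alone, and Mdh1 after fraction 2, which turned to 0.10 by another probe set; the cause was not tested. The count of members past the threshold after fraction 1 therefore ran from 0 to 1 when 1 array was left out, and was 1 in scan batch 1 alone, a setting added after the data were seen. Counts over all probe sets moved far more. After fraction 1 the 105 became 48 with median centring, 27 with no filter, 12 with no variance trend, 39 with the groups compared alone, 0 with the plain test and 66 in scan batch 1 alone, and 14 to 149 when 1 array was left out. After fraction 2 the 16 became 10 with no filter, 2 with no variance trend, 10 with chip lot as a block, 9 with the groups compared alone, 0 with the plain test and 4 in scan batch 1 alone, and 3 to 28 when 1 array was left out. Between the fractions the 2 became 0 with quantile normalization, median centring, a pseudocount of 1, no filter, no variance trend, a scan-batch term, the plain test and scan batch 1 alone, 16 with chip lot as a block, and 0 to 11 when 1 array was left out. With a replicate block on the letters a and b it was 75; the labels do not say that the letters pair samples. With 2 arrays a group, an effect on 1 member that missed the threshold is not shown to be absent.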
